A study of Mus musculus with 144 samples.

Results

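The data described here are the chromosome copy numbers of single nuclei from 1 mouse T-cell acute lymphoblastic lymphoma, T-ALL 2. The cells were those of the wells labelled as single cells of that tumor, and wells with 10 or 0 nuclei were left aside. Of 46 such wells, 44 had a call, out of 135 called single cells in the series. Cells 29 and 39 had no call. The tumor arose in a C57BL/6/Sv129 mouse with floxed Mad2 (f/f), floxed p53 (f/f) and Lck-Cre+, a transgene that expresses the Cre recombinase in developing T-cells and so deletes floxed alleles there. Animals of this kind were followed for months and killed when breathing became difficult, and their exact age is not stated in the labels. The study also describes animals of this genotype that were killed before that sign appeared. The reference was 1 untransformed thymus of the same strain with the genotype Mad2 wt, p53 wt and Lck-Cre-. Both are labelled as T-cells, which could not be checked against markers because only DNA was sequenced. Each was a single animal, so the cells describe that animal and are not replicates of a genotype, and no test between animals was possible. Intervals given with shares are exact Clopper-Pearson 95% intervals, which cover counting error only. Read depth per cell is unknown.

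Mad2 belongs to the spindle assembly checkpoint, which holds mitosis at metaphase until every chromosome is attached to spindle microtubules. Cells without it can send whole chromosomes to the wrong daughter, and p53 normally limits the survival of the aneuploid cells that result. Because each missegregation alters a whole-chromosome count that daughter cells inherit, the karyotypes of single cells carry a record of descent. Gains found in nearly every cell of a tumor are usually called its trunk, and gains found in some cells only are called later or subclonal gains. Both names are used below for frequency alone, since the order of events in time was not measured.

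The states were whole numbers per chromosome, and 2 copies was taken as disomic. In the thymus, 44 of 45 cells had 2 copies of all 19 autosomes, and cell 12 had 1 copy each of Chr16 and Chr18. Thymus cells had 0 gains. Mad2l1, the gene for Mad2, lies on Chr6 and Trp53, the gene for p53, on Chr11. In T-ALL 2 Chr6 had 2.05 ± 0.211 copies and Chr11 1.98 ± 0.151 (SD over 44 cells), and states of whole chromosomes cannot show whether the floxed parts were deleted.

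Cell 40 stood apart from the rest of the tumor. It had 5 copies of Chr4 and Chr15, 1 copy of Chr2, Chr5, Chr12 and Chr19, and 0 copies of Chr8. The closest relative of a cell was the one with the fewest autosomes in a different state, which is likeness and not measured descent. That of cell 40 differed from it at 10 autosomes, whereas no other cell was more than 5 away from its closest relative. Several results that rest on cell 40 are therefore also given without it.

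**Figure D1:**
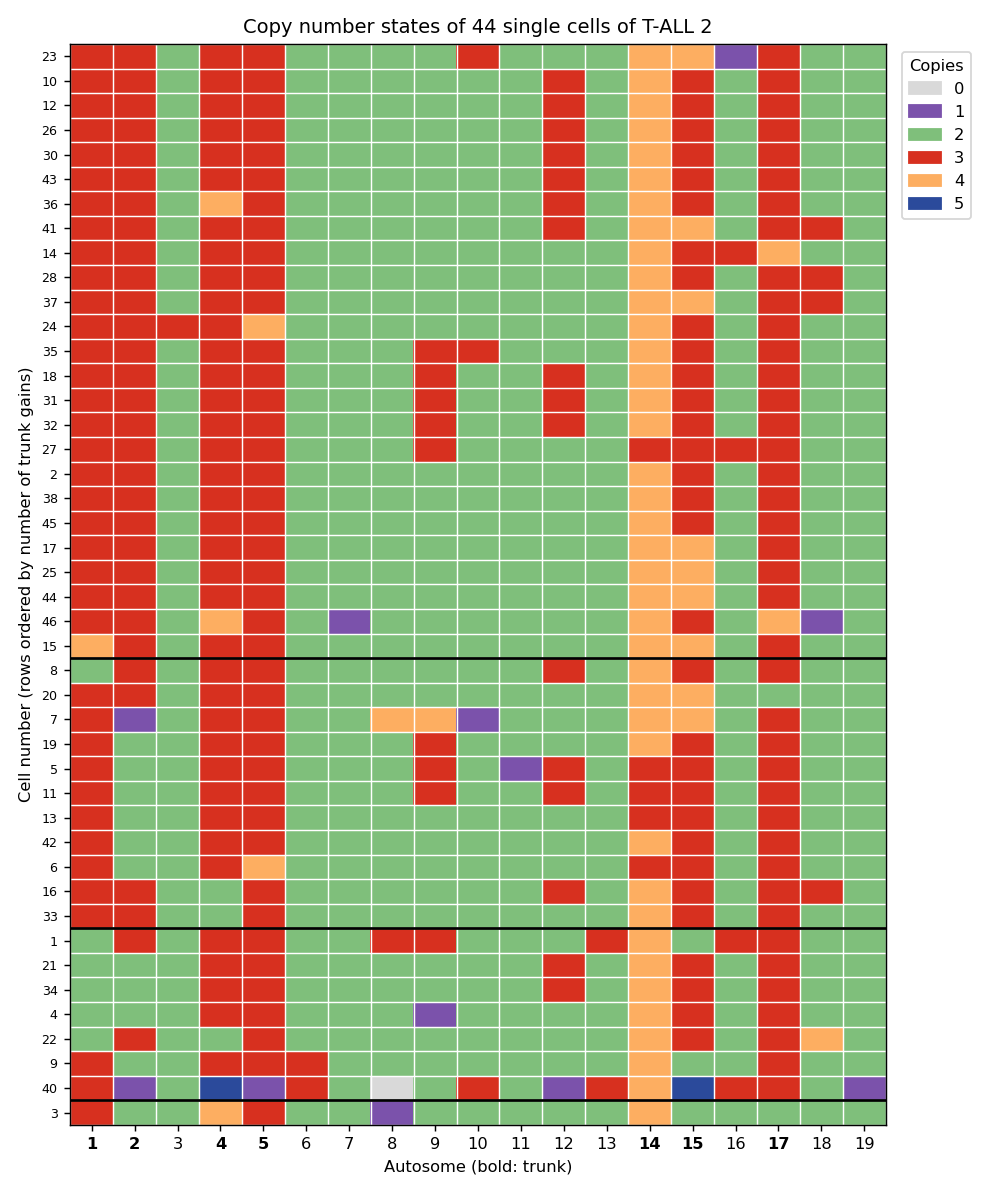
Copy number state (color) of each autosome (columns, trunk autosomes in bold) in each of the 44 called cells of T-ALL 2 (rows, labelled by cell number and ordered by the number of trunk gains, with black lines where that number changes). The first 25 rows hold all 7 trunk gains, and cell 3, the last row, holds 4 of them.

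A trunk of 7 gains was present. An autosome was placed in it when its most common state was above 2, which selected Chr1, Chr2, Chr4, Chr5, Chr14, Chr15 and Chr17. This rule does not require a gain in nearly every cell, and Chr2 was gained in 31 of 44 cells (70.5%). The usual state was 4 copies for Chr14 and 3 copies for the others. Out of 308 trunk calls, 280 (90.9%) were gains, 25 were at 2 copies and 3 were below 2. Cells carried 6.36 ± 0.838 of the 7 gains (SD over 44 cells), and none carried fewer than 4.

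The members of the trunk were held unequally. Chr14, which carries the T-cell receptor alpha and delta loci (Tcra, Tcrd) and the cell cycle inhibitor gene Rb1, was gained without exception. The Chr5 gain was missing in cell 40 only, where 1 copy was called. Chr17 was at 2 copies in cells 3 and 20, Chr4 in cells 16, 22 and 33, and Chr15 in cells 1, 3 and 9. The Chr1 gain was absent from 6 cells (13.6%, interval 5.17% to 27.4%) and the Chr2 gain from 13 (29.5%, interval 16.8% to 45.2%). Chr2 thus accounted for 13 of the 28 trunk calls without a gain.

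Copy number above the usual state was most frequent for Chr15. This chromosome was at 4 copies in 9 cells and at 5 in cell 40, together 10 cells (22.7%, interval 11.5% to 37.8%). Chr15 carries Myc (mm10 chromosome 15, 61985341 to 61990361), a transcription factor gene that drives growth in T-ALL, and Il7r, which encodes a subunit of the interleukin 7 receptor. Chr4 was above 3 copies in 4 cells, Chr5 and Chr17 in 2 cells each and Chr1 in 1 cell, cell 15. Chr2 was never above 3 copies and Chr14 never above 4. The opposite was seen for Chr14, which had 3 copies instead of 4 in cells 5, 6, 11, 13 and 27. In all, 16 cells had a trunk autosome above its usual state and 20 cells had at least 1 below it, while 13 cells had every trunk autosome at its usual state. Of these 13, cells 2, 38 and 45 had no change on any other autosome, and 8 carried a Chr12 gain.

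**Figure D2:**
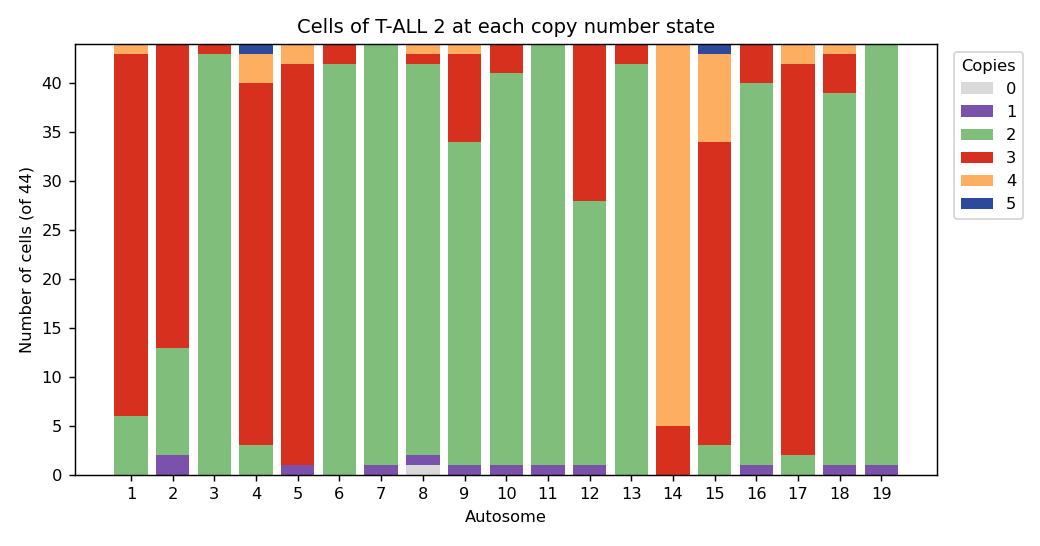
Number of cells (vertical axis, 44 in all) at each copy number state (color) for each of the 19 autosomes of T-ALL 2 (horizontal axis). Chr14 is at 3 or 4 copies in every cell, Chr2 is at 3 copies in 31 cells, and Chr12 is the autosome outside the trunk with the most gains, at 16 cells.

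It was then asked how the absent trunk gains were combined. All 7 gains were held by 25 cells (56.8%, interval 41.0% to 71.7%). The other 19 cells lacked 10 different sets of gains, of which 7 were seen in 1 cell each. Lack of Chr2 alone was the most frequent set, found in cells 5, 6, 7, 11, 13, 19 and 42. Cells 4, 21 and 34 lacked Chr1 and Chr2 together, and cells 16 and 33 lacked Chr4 alone. The sets held by 1 cell were Chr1 (cell 8), Chr17 (cell 20), Chr1 with Chr4 (cell 22), Chr1 with Chr15 (cell 1), Chr2 with Chr5 (cell 40), Chr2 with Chr15 (cell 9), and Chr2, Chr15 and Chr17 (cell 3). Absent gains were uneven over the cell numbers. Of cells 1 to 9 only cell 2 held the full trunk. Of the called cells from 23 to 46, only cells 33, 34, 40 and 42 lacked a trunk gain. The labels do not explain the cell numbers, and this unevenness was not tested.

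These absences did not fall into a nested series, in which all cells without one gain would also be without another. Among the 5 trunk autosomes whose gain was absent from at least 2 cells there were 10 pairs. None of these pairs was nested, 4 were never absent together, and 6 were crossing, with cells lacking both, only the first and only the second. For Chr1 and Chr2, 3 cells lacked both gains, 3 lacked only Chr1, 10 lacked only Chr2 and 28 lacked neither. For Chr2 and Chr4 no cell lacked both, with 13 and 3 cells lacking 1 of them. A state of 2 can mean that a gain was never acquired or that it was lost again, and the states cannot tell these apart.

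Beyond the trunk, 12 autosomes carried 45 gains and 10 losses. Cells had 1.02 ± 1.00 such later gains (SD over 44 cells), with 0 in 15 cells, 1 in 17 cells, 2 in 10 cells and 4 in cells 1 and 40. In cells with the full trunk the mean was 0.920 ± 0.759 (SD over 25 cells) and in the others 1.16 ± 1.26 (SD over 19 cells), or 1.00 ± 1.08 without cell 40. The SDs describe the spread between cells and not the error of a mean, and the gap between the means was not tested.

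Chr12 was gained most often outside the trunk. It had 3 copies in 16 cells (36.4%, interval 22.4% to 52.2%), namely cells 5, 8, 10, 11, 12, 16, 18, 21, 26, 30, 31, 32, 34, 36, 41 and 43. It carries Akt1, a kinase gene of the PI3 kinase pathway, Mycn, a relative of Myc, and Bcl11b, a regulator of T-cell commitment. The gain was seen with the full trunk in 10 cells and, among the rest, in cells that lacked Chr2 (5 and 11), Chr1 (8), Chr4 (16) or both Chr1 and Chr2 (21 and 34). It thus occurred in 5 of the 11 trunk backgrounds, the full trunk included.

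Chr9 came next, with 10 gained cells (22.7%, interval 11.5% to 37.8%), namely cells 1, 5, 7, 11, 18, 19, 27, 31, 32 and 35. It was at 4 copies in cell 7 and at 3 in the others. Chr9 carries the DNA damage kinase gene Atm and the checkpoint genes Ttk and Zw10. The gain was found with the full trunk in 5 cells, without Chr2 in cells 5, 7, 11 and 19, and without Chr1 and Chr15 in cell 1. Of 21 odd-numbered cells 8 had it, against 2 of 23 even-numbered cells. For Chr12 these counts were 6 and 10. What a cell number stands for is not given in the labels, and its part in the result was not tested.

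Less frequent gains were those of Chr18 (cells 16, 22, 28, 37 and 41, with 4 copies in cell 22), Chr16 (cells 1, 14, 27 and 40) and Chr10 (cells 23, 35 and 40). Chr6 was gained in cells 9 and 40, Chr8 in cells 1 and 7, Chr13 in cells 1 and 40, and Chr3 in cell 24. Chr7, Chr11 and Chr19 had 0 gains, which allows a share of up to 8.04% by the same interval.

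Losses were fewer, with 13 in 7 cells, and 8 in 6 cells without cell 40. Chr2 was at 1 copy in cells 7 and 40, and Chr8 was at 1 copy in cell 3 and at 0 in cell 40. Cell 46 had 1 copy of both Chr7 and Chr18, and cell 7 also had 1 copy of Chr10. The remaining losses outside cell 40 were of Chr9 (cell 4), Chr11 (cell 5) and Chr16 (cell 23). Of the 7 cells with a loss, 2 had the full trunk.

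The later gains were next compared pair by pair. Over the 5 autosomes gained in at least 3 cells outside the trunk (Chr9, Chr10, Chr12, Chr16 and Chr18), 5 of 10 pairs were never gained together, 5 were crossing and 0 were nested. Chr9 and Chr12 were together in cells 5, 11, 18, 31 and 32, which were 50% of the cells with a Chr9 gain and 31.3% of those with a Chr12 gain. Chr9 was gained without Chr12 in 5 cells and Chr12 without Chr9 in 11. The pair thus overlapped in part and neither set of cells held the other. Cells 18, 31 and 32 had the pair with the full trunk and 4 copies of Chr14, whereas cells 5 and 11 had it without the Chr2 gain and with 3 copies of Chr14.

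Chr12 was never gained together with Chr16 (16 and 4 cells) or Chr10 (16 and 3 cells). Chr18 was never gained together with Chr9 (5 and 10 cells), Chr16 or Chr10. These gains were few, and an empty overlap between sets of this size is a count and not a test. Among the crossing pairs, Chr12 and Chr18 met in cells 16 and 41, Chr9 and Chr16 in cells 1 and 27, Chr9 and Chr10 in cell 35, and Chr10 and Chr16 in cell 40 only. Leaving out cell 23, 35 or 40 took Chr10 below 3 cells, which left 3 pairs never together and 3 crossing.

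A higher dose of Chr15 was then set beside these gains, a choice made after its values were seen. Chr15 at 4 or 5 copies and a Chr12 gain were found in 10 and 16 cells and met in cell 41 only. With Chr9 the higher Chr15 dose met in cell 7 only. Cell 41, with both the Chr12 gain and 4 copies of Chr15, also had 3 copies of Chr18. The remaining 8 cells with 4 or 5 copies of Chr15 had neither a Chr9 nor a Chr12 gain, and 15 cells had none of the 3 features. No cell with 4 or more copies of Chr15 had 3 copies of Chr14, and none lacked the Chr1 gain. The lower dose of Chr14 was also set beside other features. Of its 5 cells, 4 lacked the Chr2 gain (5, 6, 11 and 13) and 3 had the Chr9 gain (5, 11 and 27). Over all 44 cells these numbers were 13 and 10, and 9 cells lacked the Chr2 gain with Chr14 at 4 copies. Cells 5 and 11 differed at 1 autosome only, as did cells 6 and 13. All of these sets are small, and their overlaps were not tested. The matrix of shared cells shows 12 chosen features, namely the 5 absent trunk gains and 5 later gains compared above and these doses of Chr14 and Chr15. Of their 66 pairs 34 were crossing, 32 never met and 0 were nested. These counts include cell 40, which was the only shared cell of some crossing pairs. Chr15 at 2 copies and Chr15 at 4 or 5 copies are 1 of the pairs that never met, which their definition fixes. Higher doses of Chr1, Chr4, Chr5 and Chr17 and the gains seen in fewer than 3 cells were not among the features.

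**Figure D3:**
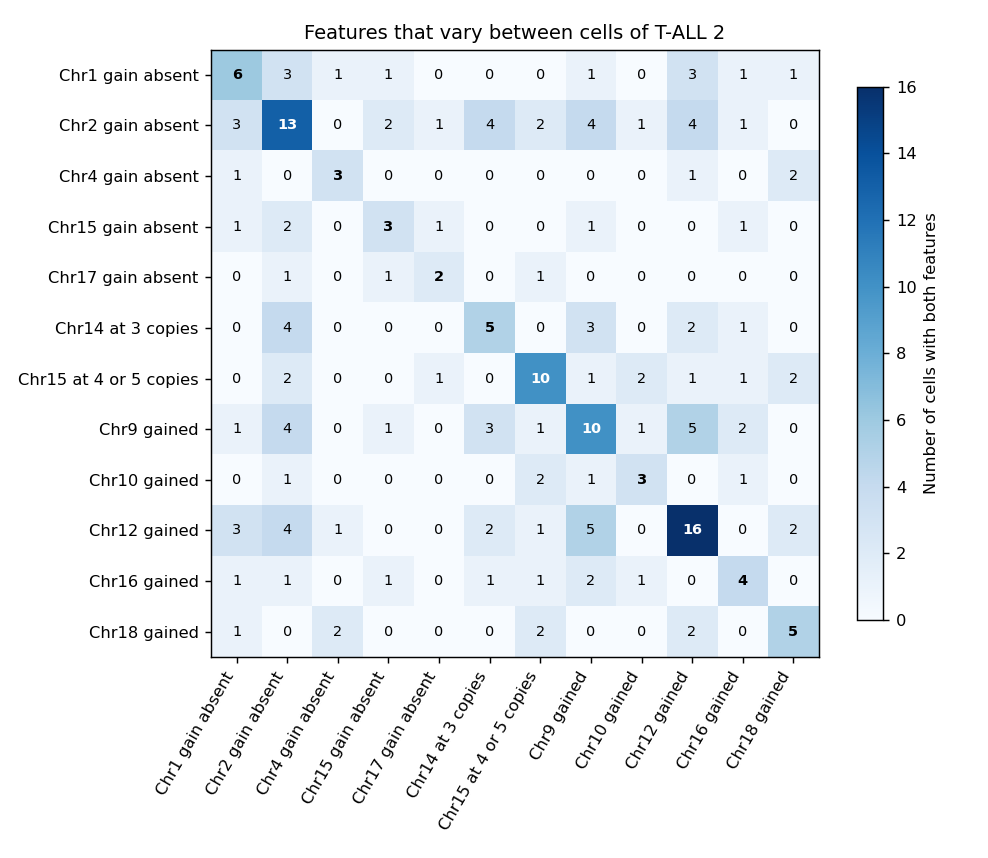
Number of cells of T-ALL 2 that have both the row and the column feature (color and digits), with the number of cells that have the feature itself on the diagonal in bold. The features are an absent trunk gain, a changed dose of Chr14 or Chr15 and a later gain; Chr9 and Chr12 share 5 cells, whereas Chr15 at 4 or 5 copies and Chr12 share 1.

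Near neighbours among the karyotypes were then sought. The distance between cells was the number of autosomes, out of 19, at which their states differed. The 44 cells formed 33 karyotypes, of which 5 were shared by more than 1 cell and covered 16 cells. Cells with equal states cannot be told from a library entered more than once, although each well has a label of its own. For another 14 cells the closest relative was at distance 1, and for 8 cells at distance 2. Cell 27 was 3 away, cells 3, 7 and 46 were 4 away, cell 1 was 5 away and cell 40 was 10 away. A relative at distance 0 or 1 was thus present for 30 of 44 cells (68.2%, interval 52.4% to 81.4%). The mean distance to the closest relative was 1.36 ± 1.84 (SD over 44 cells), or 1.16 ± 1.29 without cell 40. In T-ALL 1, the other tumor of the series, with the same genotype, 25 of 46 cells (54.3%, interval 39.0% to 69.1%) had such a relative. In the thymus it was 44 of 45 cells. Closeness is mutual and depends on how many cells were sampled, whereas the intervals treat cells as separate. The animals were therefore not compared by these intervals.

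The trunk karyotype, with every trunk autosome at its usual state and 2 copies of all others, served as a common point. Cells 2, 38 and 45 had exactly this karyotype, and the tumor as a whole was 2.43 ± 1.91 autosomes away from it (SD over 44 cells), or 2.23 ± 1.39 without cell 40. This distance came in nearly equal parts from the 7 trunk autosomes (1.18 per cell) and from the 12 other autosomes (1.25 per cell). Taken per autosome, the trunk therefore differed more often than the rest. At distance 1 there were 11 cells, at distance 2 there were 13 and at distance 3 there were 10. Cell 1 was 6 away and cell 40 was 11 away, the highest values.

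**Figure D4:**
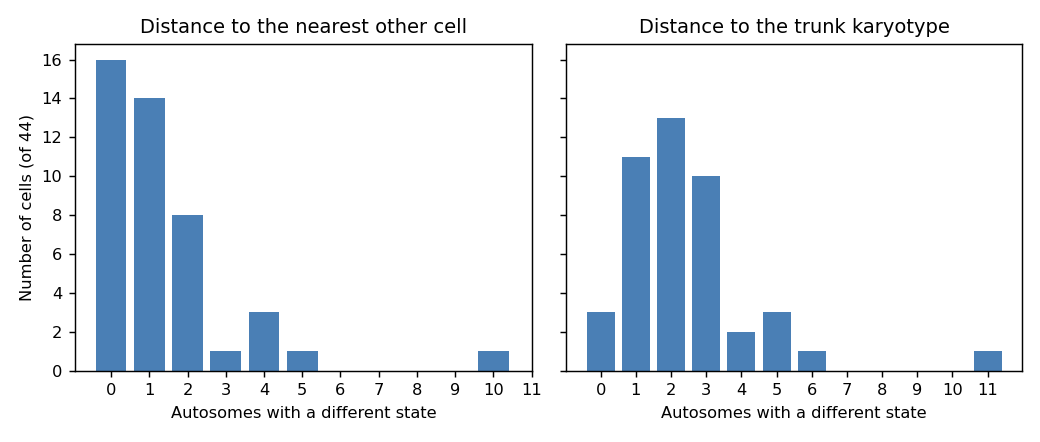
Number of cells of T-ALL 2 (vertical axis, 44 in all) at each distance to the nearest other cell (left) and to the trunk karyotype (right), in autosomes with a different state (horizontal axis). On the left 30 cells are at 0 or 1 and cell 40 stands alone at 10; on the right most cells are at 1, 2 or 3.

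When cells at distance 0 or 1 were linked, 28 cells (63.6%) joined into 1 group of 17 karyotypes, cells 5 and 11 formed a pair and 14 cells stayed unlinked. Between its most distant cells the large group spanned 6 autosomes, so that its ends were joined only through intermediate karyotypes. Of its 28 cells, 19 had the full trunk and 0 had a loss. Among the 16 cells outside it, 6 had the full trunk and 7 had a loss. Linked cells had 0.714 ± 0.713 later gains (SD over 28 cells) and the others 1.56 ± 1.21 (SD over 16 cells). The links were made from the same states, so these gaps are a description of the group and no independent measure. With links up to distance 2 the group grew to 38 cells, and cells 1, 3, 7, 27, 40 and 46 remained unlinked.

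The links themselves showed which single changes separate cells of this tumor. Of 528 pairs of karyotypes, 18 were at distance 1, and all of these differed by 1 copy. They involved 11 autosomes. Of these pairs, 11 were on the 7 trunk autosomes and 7 on the 12 others. Chr2, Chr9, Chr12 and Chr18 (2 or 3 copies) and Chr15 (3 or 4 copies) each separated 2 pairs, as did Chr1 and Chr4, each with 1 pair at 2 or 3 copies and 1 pair at 3 or 4. Chr5, Chr11, Chr14 and Chr17 separated 1 pair each. Cells 2, 38 and 45 had 5 neighboring karyotypes, more than any other. These were the most common karyotype, which added Chr12 (cells 10, 12, 26, 30 and 43), the one with 4 copies of Chr15 (cells 17, 25 and 44), and those of cells 28 (Chr18 gained), 33 (Chr4 at 2 copies) and 42 (Chr2 at 2 copies).

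All of these but cell 33 had further neighbors of their own. Next to the Chr12 karyotype were cells 18, 31 and 32, with Chr9 gained as well, cell 36 with 4 copies of Chr4, and cell 8 with 2 copies of Chr1. Next to cell 8 were cells 21 and 34, which also had 2 copies of Chr2. Next to the karyotype with 4 copies of Chr15 were cell 15 (4 copies of Chr1), cell 20 (2 copies of Chr17) and cell 37 (Chr18 gained). Cell 42 led to cell 19 (Chr9 gained) and to cell 13 (Chr14 at 3 copies), and cell 13 to cell 6 (Chr5 at 4 copies). Without cell 42 the largest group fell from 28 to 24 cells, the lowest value when cells were left out in turn.

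In 1 place the links closed into a square, so that all 4 combinations of a pair of changes were present on the same background. The changes were Chr15 at 3 or 4 copies and Chr18 at 2 or 3 copies. Cells 2, 38 and 45 had neither higher state, cells 17, 25 and 44 had that of Chr15 only, cell 28 had that of Chr18 only and cell 37 had both. Cell 41 differed from cell 37 by the Chr12 gain. Cells 28 and 37 each held a corner alone, so the square rests on both of these calls.

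**Figure D5:**
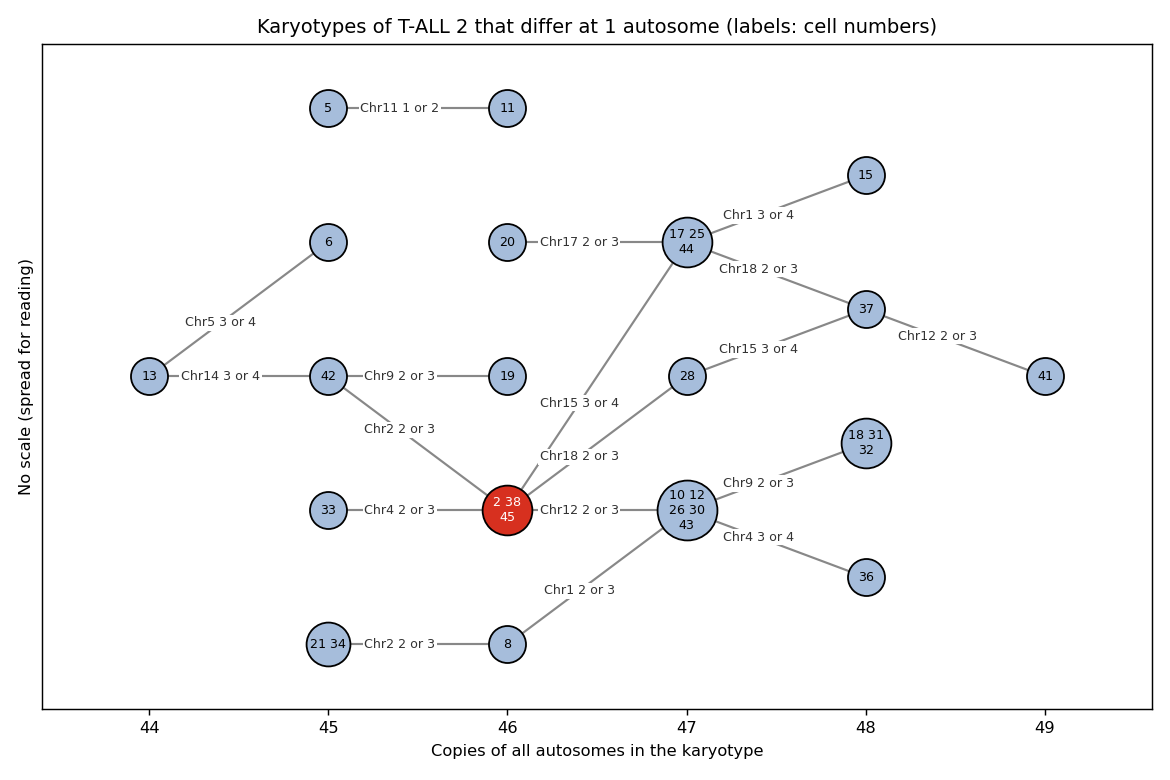
Karyotypes of T-ALL 2 that differ from another at 1 autosome (circles, labelled with their cell numbers, larger for more cells, trunk karyotype in red), placed by the copies of all autosomes together (horizontal axis; the vertical place has no scale). Lines join karyotypes at distance 1 and name the autosome and both of its states; 28 cells are joined in 1 group, cells 5 and 11 form a pair, and the 14 unlinked cells are not drawn.

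Genes with known roles in T-ALL were placed on these chromosomes, each gene taking the state of its whole chromosome. Of all protein-coding autosomal genes, 40.0% lay on the 7 trunk autosomes. For comparison, 11 of 24 T-ALL oncogenes (45.8%), 5 of 19 T-ALL tumor suppressors (26.3%), 8 of 12 spindle checkpoint genes (66.7%) and 3 of 8 T-cell receptor and CD3 genes (37.5%) lay there. Genes of a list share chromosomes and the lists are short, so these shares describe where the genes lie and are no result about the lists. In copies per cell, the median was 2.34 over the oncogenes, 2.05 over the suppressors, 2.66 over the checkpoint genes and 2.23 over the receptor genes, beside 2.11 over all genes.

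Because dose followed the chromosome, cells of this tumor differed in the genes they carried in excess. Notch1, the most often mutated oncogene of human T-ALL, lies on Chr2 with the T-cell oncogene Lmo2 and the T-cell transcription factor gene Gata3, and was at 3 copies in 31 cells, at 2 in 11 and at 1 in cells 7 and 40. Tal1 and Jak1, a transcription factor and a cytokine receptor kinase, and the cell cycle inhibitor Cdkn2a lie on Chr4 and were above 2 copies in 41 cells. Cdk6, a G1 kinase, and the checkpoint genes Mad1l1 and Kntc1 on Chr5 were above 2 copies in 43 cells. Notch3, the cyclin gene Ccnd3 and Ptcra, which encodes the pre-T-cell receptor alpha chain, on Chr17 were above 2 copies in 42 cells. Bcl2, an inhibitor of cell death, and Cd247, the CD3 zeta chain gene, on Chr1 were above 2 copies in 38 cells. Myc was at 4 or 5 copies in 10 cells and at 2 copies in cells 1, 3 and 9. Whether these doses altered expression was not measured here.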

How the data were processed

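Nuclei were stained, sorted in G1 into plates, digested with micrococcal nuclease and sequenced at low coverage. The deposited tables give, for each well, a whole-number copy number state per chromosome. How the authors scaled it is not stated. The submitters' processing notes list the build mm10 and the tools bcl2fastq 1.8.2, Bowtie2 2.1.0 and SAMtools 0.1.18. Single cells were analysed with AneuFinder according to the study's methods, which do not link that program to the deposited tables by name. Changes within a chromosome, or a doubling of all chromosomes, cannot be read from them.

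Rows were matched to samples by label. Wells of dashes were left out. Chromosomes X and Y were not used. Relations between sets of cells, distances and linked groups were computed with Python 3.11.15, NumPy 2.4.6 and SciPy 1.17.1 and drawn with Matplotlib 3.10.9; the code was tested on simulated data. No test was made between cells. Named were the trunk autosomes, others gained in at least 3 or lost in at least 2 cells, cells lacking a trunk gain, with a loss, in the linked groups or at extreme distances, and at most 3 listed genes per trunk autosome, Chr9 and Chr12. Other names were added after the values were seen. All 63 listed genes were matched to the RefSeq annotation of mm10. Cells, lists and measures were chosen with earlier results of these data known. Alternatives changed the cells used, the trunk definition, the states, the distance and the minimum number of cells.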

Additional observations from a re-analysis of the deposited data

Results flagged for a closer look

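The T-ALL 2 well with 10 nuclei, which no comparison above uses, showed a signal that the corresponding thymus well lacked. It had 6 of 19 autosomes above 2 copies (Chr1, Chr2, Chr4, Chr14, Chr15 and Chr17, each at 3), whereas the thymus well had 0. It differed from the trunk karyotype at 2 autosomes, with Chr5 at 2 copies and Chr14 at 3. Among the 44 single cells, by contrast, Chr5 was gained in 43 and Chr14 was at 4 copies in 39. The reason for this difference was not tested. The closest single cells were also 2 autosomes away, and there were 5 of them.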

How the results depend on the processing

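Of 115 alternative values, 84 stayed within the interval, the SD over cells or 1.5 times the count reported, and 31 moved beyond it; an SD over cells is wider than the error of a mean, so this is a mild criterion. The same 7 autosomes formed the trunk in odd- and even-numbered cells, without cell 40, without cells with a loss and with each karyotype counted once. Odd and even numbers alternate, so that split cannot show the unevenness over cell numbers given above. With the trunk limited to autosomes gained in at least 80% of cells (Chr2 left out), all trunk gains were held by 72.7% of cells, and at 90% (Chr1 and Chr2 left out) by 81.8%, with 4.80 trunk gains and 2.59 later gains per cell and 5 sets of absent gains. Odd-numbered cells lacked 6 sets, against 10 in all. Pairs never together, 5 as reported, numbered 3 without cell 40 and without cells with a loss, 0 in odd- and in even-numbered cells, 14 with gains in at least 2 cells and 1 with gains in at least 5. Crossing pairs, also 5, numbered 3, 3, 1, 1, 12 and 2 in the same order, and 9 and 14 with the trunk at 80% and 90%. Nested pairs, 0 as reported, numbered 2 with gains in at least 2 cells and 1 and 2 with the narrower trunks. These settings also change which autosomes are compared, and so the number of pairs, so the counts cannot be read as shares. In odd-numbered cells only Chr9 and Chr12 were left to compare, and in even-numbered cells only Chr12 and Chr18. Leaving out each cell in turn gave 3 to 5 pairs never together and 3 to 5 crossing. A relative at distance 0 or 1 was present for 52.4% of odd-numbered cells, for 88.6% with the autosomes outside the trunk only and for 95.5% with the trunk autosomes only. The largest linked group held 9 odd-numbered and 15 even-numbered cells, since links between the sets are lost, and 17 with each karyotype once. For the other moves the cause was not tested. Unknown read depth limits every call of a single cell.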
